A study of Homo sapiens with 6 samples.

Results

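The REV-ERB and ROR nuclear receptors NR1D1, NR1D2, RORA and RORB were examined by bulk RNA-seq in HTori-3.1, a human thyroid cell line. The 4 genes were taken by symbol from a table of read counts for 22354 loci, and all 4 have a row there. Of the 6 libraries, 3 are labelled control and wild type and 3 are labelled BMAL1 knockout, and all 6 come from cells given etoposide, a drug that traps topoisomerase on DNA and breaks it, at 2 μM. The treatment protocol puts the exposure at 24 h and the treatment label at 12 h. For the knockout, cells were incubated with a CRISPR-Cas9 virus against BMAL1, selected with puromycin and grown from single clones; the labels also describe an siRNA against BMAL1, which no library of the 6 is labelled with. What the control cells received in place of that virus, how many clones were used and whether the replicates are separate cultures are not given in the sources used here, so the p-values measure the spread between these libraries, which may be technical. Time of day was not given either.

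REV-ERBα (NR1D1) and REV-ERBβ (NR1D2) are nuclear receptors that bind heme and repress transcription through corepressors and the histone deacetylase HDAC3. The ROR receptors, RORα and RORβ among them, activate transcription from the same DNA elements, named RORE. In the circadian clock, BMAL1 and CLOCK activate NR1D1 and NR1D2 at E-box elements, and the REV-ERB proteins in turn repress BMAL1 and CLOCK, so that REV-ERB and ROR receptors form the stabilizing loop of the clock. RORβ is known mainly from retina, brain and pineal gland.

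The control libraries held 26893063, 27029060 and 28513703 counts, and those labelled BMAL1 knockout held 43148059, 29860233 and 43563391. Their medians stood in a ratio of 1.60, so that depth moved with the group. Levels are given as CPM, a gene's counts relative to the total of its library after TMM normalization, and the groups were compared with the quasi-likelihood test of edgeR. The method of Benjamini and Hochberg adjusted p-values over the 14860 loci kept by the filter on low counts, and a gene was called at an adjusted p under 0.05. Of these loci 352 were called, which is 2.37%, 202 of them (1.36%) lower and 150 (1.01%) higher than in the control libraries. An unadjusted p under 0.05 was reached by 2506 loci (16.9%). The number called moved with single libraries, from 104 without control replicate 2, 130 without control replicate 3, 142 without control replicate 1 and 143 without knockout replicate 2 to 683 without knockout replicate 1. DESeq2 called 2.60% of the loci lower and 2.09% higher, and limma-voom 1.03% lower and 0.686% higher. Scaled by library size only, 155 loci were called lower and 175 higher. With 3 libraries a group, the smallest p-value of an exact permutation test is 0.1.

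BMAL1, the targeted gene, had 304, 326 and 409 reads in the control libraries and 764, 603 and 860 in the libraries that are labelled BMAL1 knockout, or 11.3, 12.2 and 14.6 CPM against 17.9, 19.8 and 19.4 CPM. The transcript was thus higher in all 3 libraries labelled BMAL1 knockout. Read counts do not measure protein, so they do not settle whether the knockout label holds. The directions given here are those of the labels. The labels state that the knockout was checked by western blot, and BMAL1 protein is not in the data analysed here. The log2 fold change of the transcript was 0.58 (standard error 0.114, edgeR adjusted p = 0.0237). It was not called without control replicate 1 (edgeR adjusted p = 0.105), control replicate 2 (0.129), knockout replicate 2 (0.0817) or knockout replicate 3 (0.0598), and the smallest adjusted p of its alternatives was 8.66e-04 by DESeq2. Its log2 fold change was from 0.50 to 0.69 over the 6 fits that each left out a library.

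Both REV-ERB transcripts were lower in the libraries labelled BMAL1 knockout, NR1D1 at 42.0% and NR1D2 at 58.2% of the control level. RORA was not called, and RORB had a few reads in the libraries labelled BMAL1 knockout and 0 in the control libraries. The filter kept 3 of the 4 receptors, and 2 were called lower, where 1.36% of all loci tested were. A smaller share of expressing cells and less transcript per cell cannot be told apart in bulk libraries.

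**Figure D1:**
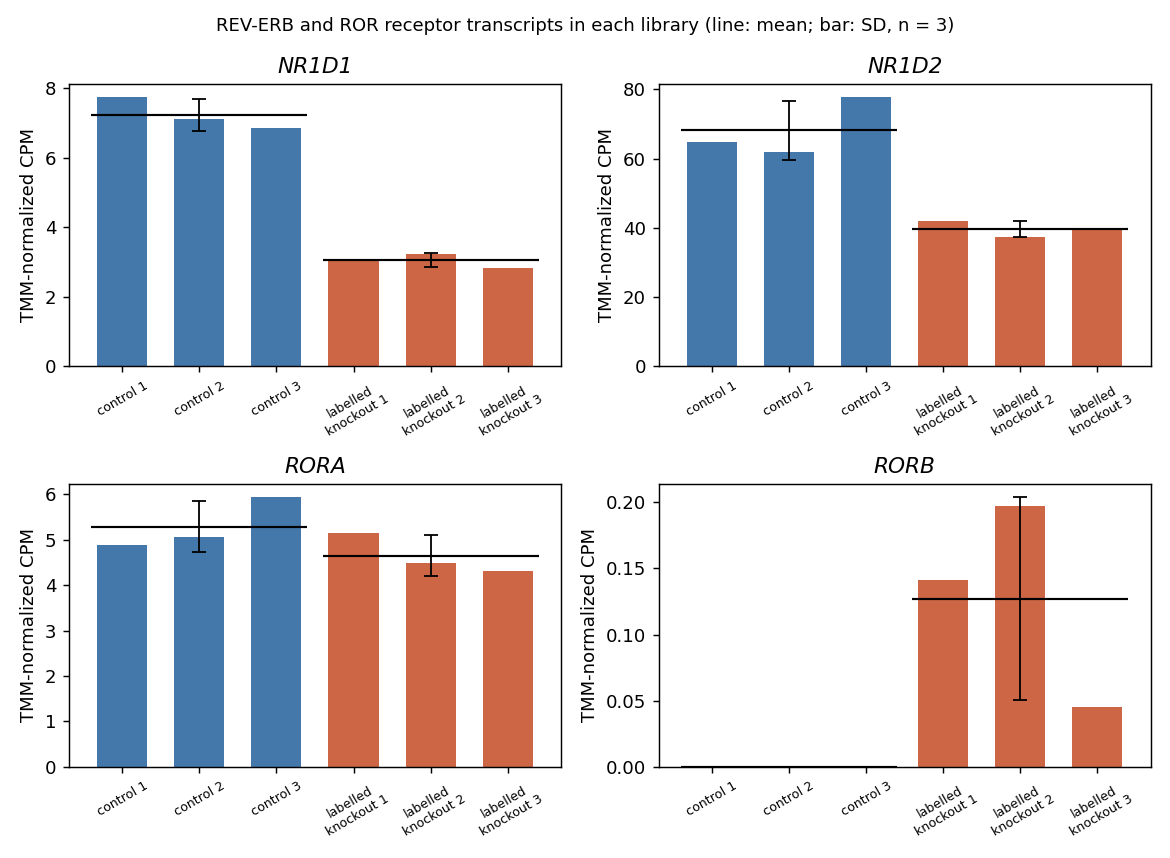
TMM-normalized CPM (vertical axes, from 0) of NR1D1, NR1D2, RORA and RORB in each of the 6 libraries, control in blue and labelled BMAL1 knockout in orange; lines are group means and error bars SDs (n = 3). The groups do not overlap for NR1D1 and NR1D2, they overlap for RORA, and RORB is at 0 in every control library and under 0.2 CPM in the others.

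NR1D1 (ENSG00000126368.6), the repressor REV-ERBα, is read from the reverse strand of chromosome 17 (hg38, 40092793 to 40100589). Its reads numbered 208, 190 and 192 in the control libraries and 131, 99 and 126 in the libraries that are labelled BMAL1 knockout, although the latter were deeper. In CPM this was 7.75, 7.11 and 6.86 against 3.07, 3.24 and 2.84. The lowest control library stood well above the highest of the libraries labelled BMAL1 knockout, and within each group the 3 values lay close together. The group means were 7.24 ± 0.463 CPM in the control libraries (SD, n = 3) and 3.05 CPM in the others. NR1D1 fell by 1.25 on the log2 scale (standard error 0.137, 95% interval -1.55 to -0.95, edgeR adjusted p = 0.00121, lower in 3 of 3 libraries). The exact permutation test (two-sided) gave its smallest possible p of 0.1. Sorted by p-value, NR1D1 was at place 13 of the 14860 loci tested, and 18 of the 202 genes called lower had a fall as large or larger, NR1D1 included. NR1D1 also passed a fold change over 2 with an unadjusted p under 0.01, as 52 loci did in that direction (0.350%).

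THRA, the thyroid hormone receptor α gene, ends inside NR1D1 on the opposite strand. It lies from 40058290 to 40093867 of the same chromosome, and 473 exon bases, 18% of those of NR1D1, belong to both genes. Whether the counting used strand is not given in the sources used here, so reads in these bases cannot be told apart and the values of NR1D1 are uncertain to that extent. THRA had 512, 499 and 500 reads in the control libraries and 640, 608 and 924 in the others, or 18.5 ± 0.625 and 18.6 ± 3.15 CPM (SD, n = 3 each). In CPM the groups overlapped, with knockout replicate 1 the lowest and knockout replicate 3 the highest of all. The log2 fold change of THRA was 0.00 (95% interval -0.27 to 0.28, edgeR adjusted p = 0.997). It turned negative without control replicate 3 (-0.02), knockout replicate 2 (-0.05) or knockout replicate 3 (-0.10) and with median-of-ratios size factors (-0.00). The overlapping neighbour of NR1D1 was thus not called in either direction.

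NR1D2 (ENSG00000174738.13), the repressor REV-ERBβ, is read from the forward strand of chromosome 3 (23945286 to 23980617). It had 64.9, 61.8 and 77.8 CPM in the control libraries and 42.0, 37.5 and 39.4 CPM in the libraries labelled BMAL1 knockout. Control replicate 3 was the highest, and all 3 control libraries lay above all 3 libraries labelled BMAL1 knockout. The means were 68.2 ± 8.48 and 39.7 ± 2.26 CPM (SD, n = 3 each). NR1D2 fell by 0.78 on the log2 scale (standard error 0.0992, edgeR adjusted p = 0.00277, lower in 3 of 3 libraries; exact permutation p = 0.1, two-sided). It was at place 29 of all loci by p-value, and its fold change did not reach 2. Without control replicate 3, NR1D2 fell by 0.67 with an adjusted p of 0.0178 (edgeR), the largest p among its alternatives, and DESeq2 gave the smallest, 4.36e-10. NKIRAS1 runs across the start of NR1D2 on the opposite strand but shares 0 exon bases with it. The log2 fold change of NKIRAS1 was 0.16 (95% interval -0.35 to 0.67, edgeR adjusted p = 0.776), and -0.12 without knockout replicate 1.

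Groups lay apart in CPM for 3465 of the 14860 loci tested (23.3%), NR1D1 and NR1D2 among them. Since the libraries labelled BMAL1 knockout were deeper, all libraries were also thinned at random to the smallest total. Thinned reads of NR1D1 were 208, 189 and 185 against 80, 86 and 80, and those of NR1D2 were 1742, 1646 and 2052 against 1121, 1038 and 1032. At equal depth the groups stayed apart for both genes, and the log2 fold changes were -1.27 for NR1D1 and -0.80 for NR1D2.

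**Figure D2:**
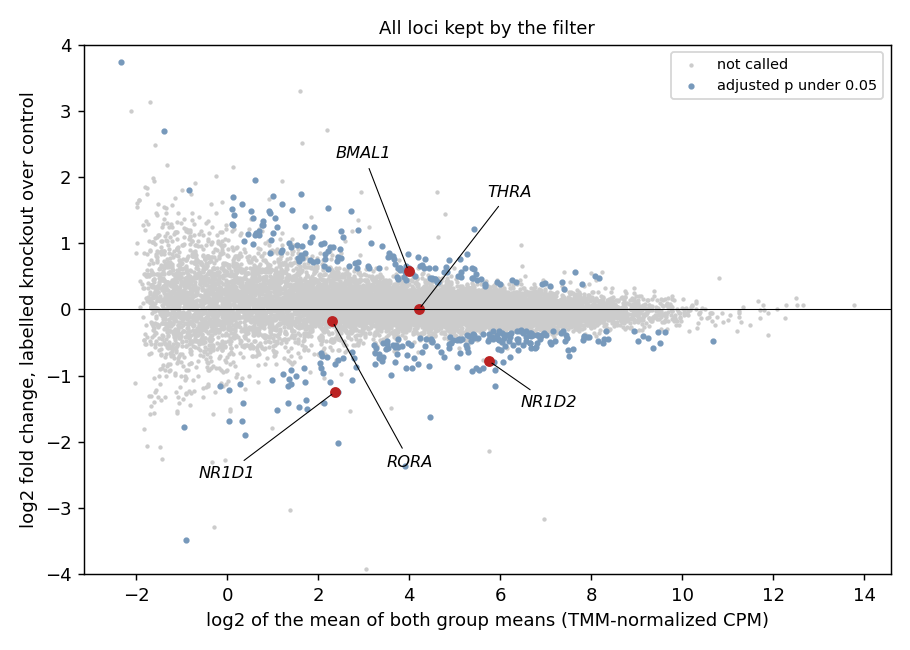
Log2 fold change of the libraries labelled BMAL1 knockout over control (vertical axis) against the log2 of the mean CPM of both groups (horizontal axis) for the 14860 loci kept by the filter, with called loci in blue and NR1D1, NR1D2, RORA, BMAL1 and THRA in red; 3 loci lie beyond the vertical axis and are not drawn. NR1D1 and NR1D2 lie among the loci called lower, at -1.25 and -0.78, where some loci of similar abundance fell further, and RORA and THRA lie inside the uncalled cloud.

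The promoter sequence is shown for NR1D2 because it holds elements of both kinds named above, the E-box and the RORE. RefSeq windows of 300 bases (GRCh38.p14; 250 before a transcript start and 50 from it on) were found for all 4 receptors, 6 windows in all, and searched on both strands for the E-box CACGTG, the hexamer AGGTCA and the 11-base RORE consensus, some forms of which contain that hexamer. Of 35116 such windows over all genes, 7.26% hold the E-box, 0.664% hold it at least 2 times, 13.8% hold AGGTCA and 0.316% hold the RORE. One of the 2 windows of NR1D2 holds 2 E-boxes and 1 RORE. Only 6 of the 35116 windows (0.0171%) hold an E-box together with a RORE. The printed stretch is the part before the start at 23946121, which lies between annotated exons of NR1D2, with the E-boxes and the RORE in capitals (forward strand, chr3:23945871-23946120).
NR1D2: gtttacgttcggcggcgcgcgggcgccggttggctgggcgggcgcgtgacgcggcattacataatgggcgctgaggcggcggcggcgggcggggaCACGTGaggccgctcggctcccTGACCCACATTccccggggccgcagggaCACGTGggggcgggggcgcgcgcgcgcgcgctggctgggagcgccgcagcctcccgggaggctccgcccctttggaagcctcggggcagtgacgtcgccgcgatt

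The E-boxes begin 155 and 105 bases before the start, and the RORE, which reads on the reverse strand, lies between them with 16 bases on one side and 17 on the other. The windows of NR1D1, RORA and RORB, and the other window of NR1D2, hold none of the 3 motifs. That says only that these letters are not in these windows. Among the genes known to be regulated at RORE elements, windows were found for 8 of 12, and a RORE is in 1 of the 2 windows of BMAL1 and in 1 of the 2 of CLOCK. For comparison, the 3 elements are printed in the direction of the RORE, which is in capitals, with the bases around it. The first is from chr3:23945978-23946007 on the reverse strand, the second from chr11:13277807-13277836 on the forward strand, inside an exon of BMAL1 and 27 bases after the start of the window's transcript. The last is from chr4:55546130-55546159 on the forward strand, opposite to CLOCK.
NR1D2: gccccggggAATGTGGGTCAgggagccgag
BMAL1: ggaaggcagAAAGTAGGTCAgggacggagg
CLOCK: gacaggaatAAAGTGGGTCAcaaggcctag

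The 3 genes with a RORE in a window differed in their values. NR1D2 fell by 0.78 on the log2 scale, BMAL1 was higher by 0.58, and CLOCK had a log2 fold change of -0.12 (95% interval -0.29 to 0.06, edgeR adjusted p = 0.489). Without control replicate 3 the value of CLOCK was -0.05. A match of letters is a description, and binding was not analysed here.

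RORA (ENSG00000069667.16), the activator RORα, is read from the reverse strand of chromosome 15 (60488284 to 61229302). Its reads numbered 131, 135 and 166 in the control libraries and 220, 137 and 191 in the libraries that are labelled BMAL1 knockout, or 4.88, 5.05 and 5.93 CPM against 5.15, 4.49 and 4.31 CPM. The groups overlapped, since knockout replicate 1 lay above control replicates 1 and 2. Means were 5.29 ± 0.562 and 4.65 ± 0.445 CPM (SD, n = 3 each). The log2 fold change was -0.18 (standard error 0.145, 95% interval -0.50 to 0.13, edgeR adjusted p = 0.565; exact permutation p = 0.300, two-sided). A difference was not detectable here, and the interval reaches -0.50 on the log2 scale but not the -0.78 of NR1D2. Several noncoding genes, among them RORA-AS1 and RORA-AS2, overlap RORA and had no counts of their own used here. RORA-AS1 shares 564 exon bases with it on the opposite strand, which is 3.31% of the RORA exons.

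RORB (ENSG00000198963.11), the activator RORβ, is read from the forward strand of chromosome 9 (74497335 to 74693177). It had 0, 0 and 0 reads in the control libraries and 6, 6 and 2 reads in the libraries labelled BMAL1 knockout, or 0.141, 0.197 and 0.0451 CPM in the latter. All values were thus near the limit of detection, and reads were present in each library labelled BMAL1 knockout. The filter dropped RORB, so it has no fold change with the other genes, and the exact permutation test (two-sided) gave its smallest possible p of 0.1. Over the group, 14 reads in 116571683 counts are 0.120 CPM without TMM (exact Poisson 95% interval 0.0657 to 0.202). A count of 0 in the 82435826 control counts allows up to 3 reads, or 0.0364 CPM. The observed RORB level in the libraries labelled BMAL1 knockout was 3.30 times that control floor, and the low end of its interval was 1.80 times the same floor. The interval and the floor cover counting error only.

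Loci with reads in all 3 libraries labelled BMAL1 knockout and in 0 control libraries numbered 98 of 22354, or 0.438%, while 9 showed the reverse. After thinning of all libraries to equal depth, these numbers were 83 and 12, and RORB had 3, 6 and 0 reads left in the libraries labelled BMAL1 knockout. At equal depth RORB was thus seen in 2 of these 3 libraries. With no filter, edgeR gave RORB an adjusted p of 0.276 over 19459 loci. RORB-AS1, a noncoding gene on the opposite strand, overlaps RORB but shares 0 exon bases with it.

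**Figure D3:**
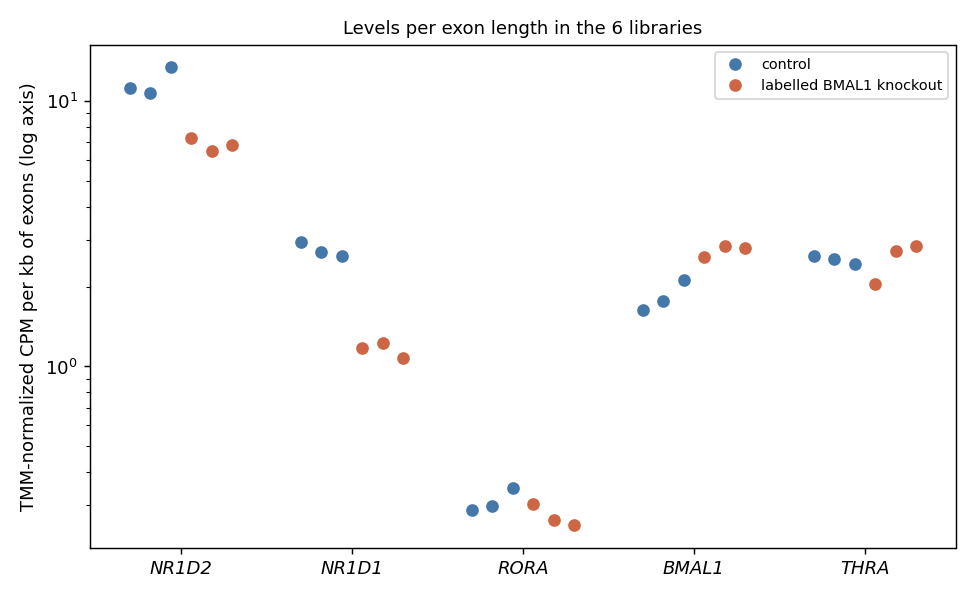
TMM-normalized CPM per kilobase of exons (log axis) of NR1D2, NR1D1, RORA, BMAL1 and THRA in each of the 6 libraries, control in blue and labelled BMAL1 knockout in orange. Per length, NR1D2 is the most abundant of the 3 receptors in every library and RORA the least. RORB, at 0 in the control libraries, is not drawn.

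Levels of the receptors, BMAL1 and THRA were compared with each other per length, as CPM per kilobase of the union of annotated exons. By this measure NR1D2 had 11.8 ± 1.46 in the control libraries and 6.85 ± 0.391 in the libraries labelled BMAL1 knockout (SD, n = 3 each). NR1D1 had 2.75 ± 0.176 and 1.16 ± 0.0761, and RORA had 0.311 ± 0.0330 and 0.273 ± 0.0261. The order NR1D2, NR1D1, RORA, RORB held in every library, and the levels of neighbours in it did not overlap within a group. BMAL1 itself was at 1.83 ± 0.245 and 2.74 ± 0.142, so that it was below NR1D1 in each control library and above it in each library labelled BMAL1 knockout. The union takes in every annotated exon, 17023 bases for RORA against 2630 for NR1D1 and 5793 for NR1D2, and a gene with many alternative exons has a low value by this measure.

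The ratio of NR1D2 to NR1D1 per length was 3.80, 3.95 and 5.15 in the control libraries and 6.22, 5.26 and 6.30 in the libraries that are labelled BMAL1 knockout. REV-ERBβ transcript was thus the more abundant in every library, and the libraries labelled BMAL1 knockout had the higher ratios, with control replicate 3 close to knockout replicate 2. The ratio of NR1D1 to RORA, repressor to activator, was 10.3, 9.11 and 7.49 against 3.85, 4.68 and 4.27. That of NR1D2 to RORA was 37.9 against 25.1 on average. Both ratios of a REV-ERB to RORA were lower in each library labelled BMAL1 knockout than in any control library. Per length, the REV-ERB transcripts remained the more abundant throughout. For NR1D1 this depends on the long exon union of RORA. In CPM, NR1D1 was below RORA in each library labelled BMAL1 knockout (3.07, 3.24 and 2.84 against 5.15, 4.49 and 4.31). It was above RORA in each control library (7.75, 7.11 and 6.86 against 4.88, 5.05 and 5.93). These ratios are descriptions, and the difference between the falls of NR1D1 and NR1D2 was not tested.

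**Figure D4:**
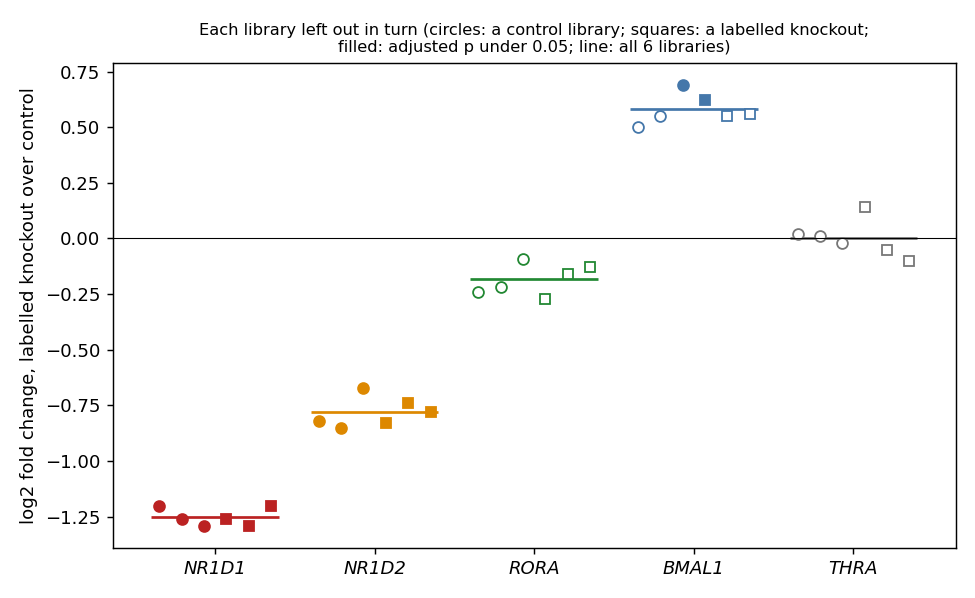
Log2 fold change (vertical axis) of NR1D1, NR1D2, RORA, BMAL1 and THRA with each of the 6 libraries left out in turn; circles leave out a control library and squares a library labelled BMAL1 knockout, filled symbols have an adjusted p under 0.05 and lines show the value with all 6. NR1D1 stays between -1.29 and -1.20 and NR1D2 between -0.85 and -0.67, called in all 6 fits, whereas BMAL1 is called in 2 of 6, RORA in 0 of 6, and THRA lies on both sides of 0.

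Genes known to be regulated at RORE elements were read as a list of 12, of which 9 were tested. Whether both kinds of receptor act on each of them in these cells was not tested. At an adjusted p under 0.05 (edgeR), 1 was higher and 0 were lower, and 5 had a positive and 4 a negative log2 fold change. The median was 0.09, beside 0.01 over all loci tested. DESeq2 and limma-voom likewise called 1 higher and 0 lower, where 1.01% of all loci were called higher by edgeR, 2.09% by DESeq2 and 0.686% by limma-voom. An unadjusted p under 0.05 (edgeR) was reached by 5 of the 9, beside 16.9% of all loci. These did not share a direction, since BMAL1, NFIL3 and ELOVL3 were higher and NPAS2 and IL6 lower. The gene called by each method was BMAL1, and no other gene of the list was called. BMAL1 is itself the gene targeted in the knockout, so its reads are not a separate readout of the receptors. Without control replicate 1, control replicate 2, knockout replicate 2 or knockout replicate 3 the edgeR count was 0. NFIL3, a repressor that shares sites with the PAR bZIP factors, had 12.2, 12.2 and 12.2 CPM in the control libraries and 14.1, 15.2 and 15.1 CPM in the libraries labelled BMAL1 knockout. These groups did not overlap, but the log2 fold change of 0.28 did not pass (edgeR adjusted p = 0.177). CRY1, a clock repressor, had a log2 fold change of 0.18 (edgeR adjusted p = 0.373), and NPAS2, a paralog of CLOCK, one of -0.28 (edgeR adjusted p = 0.214). CRY1 went from 0.11 to 0.28 and NPAS2 from -0.34 to -0.20 with each library left out.

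Outside the clock, ELOVL3, an enzyme of fatty acid elongation, had 5, 6 and 0 reads in the control libraries and 27, 14 and 21 in the libraries that are labelled BMAL1 knockout. Its log2 fold change was 1.94 with a wide 95% interval from 0.65 to 3.22, and it was not called (edgeR adjusted p = 0.113). Without control replicate 3, the library with 0 reads, the log2 fold change was 1.35. Among the inflammatory genes, IL6 had a log2 fold change of -0.22 (edgeR adjusted p = 0.266) and the chemokine CCL2 one of -0.15 (edgeR adjusted p = 0.784; -0.03 without control replicate 1). The lipid transport genes APOA1 and APOC3 and the fatty acid binding protein FABP7 did not pass the filter, and APOC3 and FABP7 had 0 reads in all 6 libraries.

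**Figure D5:**
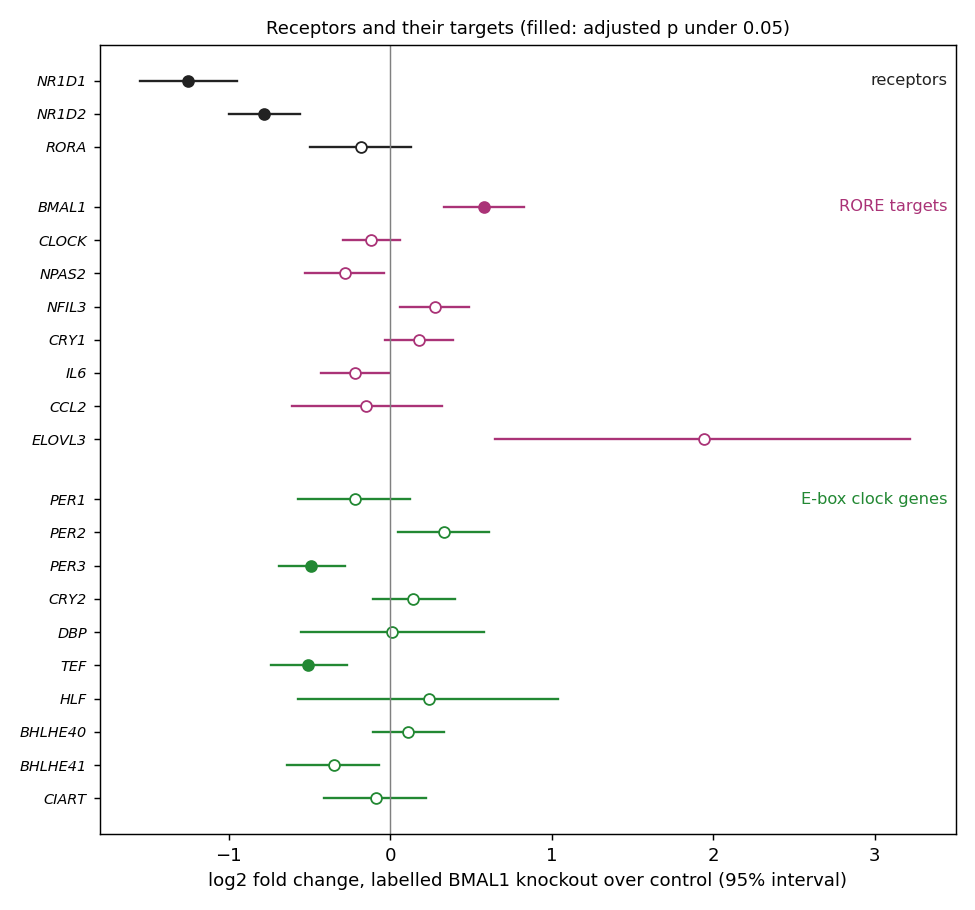
Log2 fold change of the libraries labelled BMAL1 knockout over control (horizontal axis) with its 95% interval for NR1D1, NR1D2 and RORA, for 8 of the 9 tested genes regulated at RORE elements and for the 10 clock genes regulated at E-boxes; filled symbols have an adjusted p under 0.05. Only NR1D1, NR1D2, BMAL1, PER3 and TEF are filled, and every fall drawn for another gene is smaller than that of NR1D2.

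The clock genes that BMAL1 and CLOCK activate at E-boxes, as they do NR1D1 and NR1D2, were read as a list of 10, all tested. Of these, 2 were lower and 0 higher at an adjusted p under 0.05 (edgeR), 5 were positive and 5 negative, and the median was -0.04, beside 0.01 over all loci. DESeq2 and limma-voom gave the same counts, where 1.36% of all loci were called lower by edgeR, 2.60% by DESeq2 and 1.03% by limma-voom. An unadjusted p under 0.05 (edgeR) was reached by 4 of the 10, beside 16.9% of all loci. Of these, PER3, TEF and BHLHE41 were lower and PER2 was higher. TEF, a PAR bZIP activator, had 11.6, 12.5 and 13.5 CPM in the control libraries and 8.85 ± 0.162 CPM in the others (SD, n = 3), and fell by 0.51 on the log2 scale (edgeR adjusted p = 0.0341). PER3, a period gene, had 27.5, 26.1 and 26.2 CPM against 18.2, 18.1 and 20.5 CPM and fell by 0.49 (edgeR adjusted p = 0.0195). In both genes the groups lay apart. These calls were less steady than those of the REV-ERB genes. The edgeR adjusted p of TEF was 0.0695, 0.140 and 0.103 without control replicates 1, 2 and 3 and 0.129 and 0.0752 without knockout replicates 2 and 3, with 0.00827 by DESeq2 the smallest of its alternatives. For PER3 it was 0.0893, 0.0889 and 0.0654 without control replicates 1, 2 and 3 and 0.0957 without knockout replicate 2, with 5.97e-04 by DESeq2 the smallest of its alternatives. The count of the list was thus 0 without any one of these 4 libraries and 1 without knockout replicate 3. PER3 shares 868 exon bases, 10.7% of its own, with UTS2 on the opposite strand.

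The other period genes stood on either side of 0, PER1 with a log2 fold change of -0.22 (edgeR adjusted p = 0.513; -0.06 without knockout replicate 1) and PER2 with 0.33 (edgeR adjusted p = 0.214). BHLHE41, a repressor of E-box genes, had -0.35 (edgeR adjusted p = 0.194), and its paralog BHLHE40 had 0.11 (edgeR adjusted p = 0.629). CRY2 had 0.14, CIART, a repressor of BMAL1 and CLOCK, had -0.09, and HLF, the third PAR bZIP gene, had 0.24, none of them called. With each library left out, CIART went from -0.19 to -0.01, HLF from 0.03 to 0.54 and BHLHE40 from 0.05 to 0.19. DBP, a PAR bZIP activator like TEF, had 1.94, 1.27 and 1.36 CPM in the control libraries and 1.48, 2.00 and 1.24 CPM in the libraries labelled BMAL1 knockout. The groups overlapped, and its log2 fold change was 0.01 (95% interval -0.55 to 0.58, edgeR adjusted p = 0.989), with a sign that turned without control replicate 2 (-0.10), control replicate 3 (-0.06) or knockout replicate 2 (-0.16). DBP shares 661 exon bases, 10.2% of its own, with SPHK2 on the opposite strand. Windows of 5 of the 10 genes hold a CACGTG, those of PER1, TEF, BHLHE40, BHLHE41 and CIART, of which TEF was called.

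Partners through which the receptors act were also read as lists, and the counts at an unadjusted p under 0.05 stand beside 16.9% of all loci. Among 8 coactivators 0 were called by edgeR, 2 had an unadjusted p under 0.05, and the median was 0.03. The smallest p belonged to NCOA1, a coactivator of steroid receptors, with a log2 fold change of 0.31 (edgeR adjusted p = 0.135). NCOA1 was called without knockout replicate 1 (edgeR adjusted p = 0.0336, in a range up to 0.367), and DESeq2 and limma-voom called 0 of the 8.

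Heme is the ligand of REV-ERB proteins. Of 12 genes of heme synthesis and breakdown 0 were called by edgeR, 2 had an unadjusted p under 0.05, a share near the 16.9% of all loci, and the median was 0.01. CPOX, a late enzyme of the synthesis, had the smallest p, with a log2 fold change of -0.33 (edgeR adjusted p = 0.124; -0.20 without control replicate 3). DESeq2 and limma-voom also called 0 of the 12. Of 8 kinases and ubiquitin ligases that set the stability of REV-ERB proteins 0 were called by edgeR. An unadjusted p under 0.05 was reached by 4 of the 8, beside 16.9% of all loci, and these went in both directions. The median of the 8 was 0.13. CDK1, the mitotic kinase, had the smallest p, with a log2 fold change of 0.44 (edgeR adjusted p = 0.118), which was 0.23 without knockout replicate 1. DESeq2 called CDK1 alone of the 8 (adjusted p = 0.0235, in a range up to 0.346 over its alternatives), and limma-voom called 0.

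As a frame for the receptors, 44 other nuclear receptor genes were listed, of which 26 were tested. At an adjusted p under 0.05 (edgeR), 1 was lower and 0 were higher, where edgeR called 1.36% of all loci lower and DESeq2 2.60% lower and 2.09% higher. Of the 26, 18 were negative and 8 positive, and the median was -0.06. NR2F2, which encodes the orphan receptor COUP-TFII, fell by 0.41 on the log2 scale, from 108 ± 7.15 to 80.7 ± 6.20 CPM (SD, n = 3 each; edgeR adjusted p = 0.0279). Its adjusted p (edgeR) was 0.0715, 0.0983 and 0.0988 without control replicates 1, 2 and 3 and 0.121 without knockout replicate 2, with 6.73e-04 by DESeq2 the smallest of its alternatives. Of the 26, 6 had an unadjusted p under 0.05 (edgeR), beside 16.9% of all loci. DESeq2 called NR2F2 lower and 1 gene higher, NR4A1, which is named after its values were seen, and limma-voom called NR2F2 only. No test sets the 4 receptors against these genes.

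The genes most like each REV-ERB gene were sought among 12495 other named genes whose mean reached 1 CPM, by the root-mean-square distance of their centred log2 CPM profiles over the 6 libraries (pseudocount 0.5 CPM). Nearest to NR1D1 were OASL, an interferon-induced gene of the OAS family, at a distance of 0.0686, TGM2, a transglutaminase, at 0.123, and ELAVL2, an RNA-binding protein, at 0.149. OASL went from 81.9, 86.5 and 75.8 CPM to 37.0, 37.1 and 36.1 CPM. NR1D2 was nearest to TLR4, the receptor of bacterial lipopolysaccharide, at 0.0408, IL7R, the interleukin-7 receptor, at 0.0513, and SERPINE2, a serine protease inhibitor, at 0.0747. TLR4 went from 5.29, 4.79 and 6.32 CPM to 3.16, 2.62 and 3.07 CPM. All 6 genes were called lower (edgeR adjusted p from 5.16e-05 to 0.0163), a direction that their choice by likeness to NR1D1 and NR1D2 fixed, TLR4 not without control replicate 3 (0.0821) or knockout replicate 2 (0.0559), with 0.00123 by DESeq2 the smallest of its alternatives. TLR4 shares 5.11% of its exon bases with another annotated gene on its strand. The distance between NR1D1 and NR1D2 themselves was 0.236, larger than any of these. This likeness is a description over 6 libraries.

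The thyroid label was checked with 15 markers of follicular cells. Their summed level was 184, 185 and 215 CPM in the control libraries and 144, 161 and 186 CPM in the libraries labelled BMAL1 knockout. PAX8 made up most of this sum, at 122 CPM on average and not corrected for length, and 11 of the 15 markers were under 1 CPM in every library. The defining markers TG and TSHR were among these 11, and NKX2-1, IYD and DUOXA2 were at 0 reads throughout, so only part of the thyroid program was present. Of the 6 tested, 4 had a positive and 2 a negative log2 fold change, with a median of 0.11. FOXE1, a thyroid transcription factor, had the smallest p of the list, with a log2 fold change of -0.26 (edgeR adjusted p = 0.141), and 0 of the 6 markers tested were called by edgeR, 2 having an unadjusted p under 0.05, beside 16.9% of all loci. DESeq2 and limma-voom also called 0.

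The 5 epithelial markers summed to 2266, 2313 and 2223 CPM in the control libraries and 1816, 1722 and 1767 CPM in the libraries labelled BMAL1 knockout, and KRT8 had the largest CPM, 1282, not corrected for length. Of the 4 tested, 2 had a positive and 2 a negative log2 fold change, and 2 had an unadjusted p under 0.05, beside 16.9% of all loci. KRT18 alone was called lower by edgeR, beside 1.36% of all loci (log2 fold change -0.50, edgeR adjusted p = 0.00588; 0.0561 without control replicate 2, with 2.49e-07 by DESeq2 the smallest of its alternatives), and it shares 17.1% of its exon bases with KRT8. DESeq2 called KRT8 lower as well. The 5 fibroblast markers summed to 922, 926 and 789 against 718, 935 and 989 CPM, nearly all of it COL1A1 at 860 CPM, and DCN and LUM were at 0. Of the 2 tested, 0 were called by edgeR, DESeq2 or limma-voom and 0 had an unadjusted p under 0.05, PDGFRB having the smaller p (log2 fold change 0.14, edgeR adjusted p = 0.560). The value of PDGFRB was 0.05 without knockout replicate 3 and 0.24 without knockout replicate 1. The 5 immune markers summed to 19.2, 19.7 and 17.9 against 14.1, 12.4 and 13.1 CPM, with the largest CPM in CD68 (11.1), and with CD3E at 0. CD68 shares 81.6% of its exon bases with an annotated noncoding gene on its strand. Of the 3 tested, 1 had a positive and 2 a negative log2 fold change, and 2 had an unadjusted p under 0.05, beside 16.9% of all loci. PTPRC alone was called lower by edgeR, beside 1.36% of all loci, from 6.40 ± 0.145 to 2.36 ± 0.341 CPM (SD, n = 3 each; log2 fold change -1.42, edgeR adjusted p = 0.00107). The epithelial and immune sums were thus lower in the libraries labelled BMAL1 knockout, as NR1D1 and NR1D2 were, while single markers of both lists were not, and their part in the receptors' values was not tested.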

How the data were processed

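RNA-seq of 6 HTori-3.1 libraries was analysed. The authors trimmed and filtered the reads, aligned them to hg38 and deposited raw counts, the number of uniquely mapped reads on each gene in each library, without normalization or pooling. Their notes name fastp 0.20.1 for mapping and HISAT2 2.0.4 for counting; annotation and strandedness are not given in the sources used here. Of 22354 loci, 20044 matched GENCODE v44 (hg38), which gave positions, exon lengths and overlaps.

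CPM (TMM) and two-sided quasi-likelihood tests were computed with edgeR 4.0.16 (R 4.3.3; filterByExpr, robust estimation, Benjamini-Hochberg over 14860 loci). Standard errors came from the F statistic. The edgeR, DESeq2 and limma-voom steps were tested on simulated data. Between replicates the counts varied 5.41 to 45.0 times as much as counting gives, averaged over genes, so spread limits the precision of abundant genes, and counting limits that of RORB.

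Members and lists were chosen with earlier results of these data known. Named genes are the receptors, BMAL1, genes overlapping a receptor, the tested RORE and E-box genes, of each other list up to 4 called genes or else the gene with the smallest p, and the 3 nearest profiles of NR1D1 and NR1D2. Some of these are not reported here. Markers at 0 and the most abundant markers are named besides. Alternatives were size factors by median of ratios, no scaling beyond library size, no filter or a minimum of 10 counts in each library, a replicate block, each library left out, DESeq2 1.42.0, limma-voom (limma 3.58.1), thinning and, chosen after seeing the data, edgeR's earlier quasi-likelihood method.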

Additional observations from a re-analysis of the deposited data

How the results depend on the processing

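Under 15 alternatives each, NR1D1 (log2 fold change -1.29 to -1.20) and NR1D2 (-0.85 to -0.67) remained called and RORA (-0.27 to -0.09) uncalled. With each library left out, BMAL1 lay between 0.50 and 0.69 and was called in 2 of 6 fits, and THRA lay between -0.10 and 0.14; THRA, at 0.00, was -0.00 with median-of-ratios size factors and -0.01 with limma-voom. DBP was -0.02 at equal depth and -0.16 to 0.22 with each library left out, NKIRAS1 -0.12 to 0.35. DESeq2 called 697 loci; leaving out a library gave 104 to 683. RORE genes called were 0 to 1 and E-box genes 0 to 2 across those fits. The cause of these changes was not tested.

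With a replicate block, 216 loci and 0 E-box genes were called, THRA was -0.01, NR1D1 -1.25 and NR1D2 -0.78, both called; the edgeR adjusted p of PER3 (0.0543) and TEF (0.0754) was above 0.05. Deviations of same-numbered libraries from their group means correlated at -0.15, -0.00 and -0.05 across genes. With so few libraries in a group, these values cannot exclude that same-numbered libraries were handled together.

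RORB could be fitted only without a filter, and ELOVL3 has no value with DESeq2 or with at least 10 counts in every library. The RORB mean difference of 0.127 CPM was 0.110 at equal depth and 0.0924 to 0.168 with each library left out. An edgeR method chosen after seeing the data made 373 calls. Depth limits RORB, whose level is near the floor of 3 reads.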
